A study of Mus musculus with 6 samples.

Results

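AMPA receptors and the proteins that escort them were followed in the hippocampus of Prmt9 KO mice through 10 genes. They were the 4 genes for the pore-forming subunits (Gria1, Gria2, Gria3 and Gria4), 5 genes for transmembrane AMPA receptor regulatory proteins, or TARPs (Cacng2, Cacng3, Cacng4, Cacng5 and Cacng8), and the cornichon gene Cnih2. The genes were chosen by symbol, and all 10 were found among the 36008 genes of the gene table. They carry 39 of the 118783 transcripts in the files. PolyA RNA was sequenced from hippocampus of 3 WT and 3 Prmt9 KO mice, and transcript levels were given as TPM, a level scaled for transcript length and library size. All 6 mice were females of strain B6J at 2 weeks of age. The KO mice lacked Prmt9 in the whole body: the floxed exon 5 had been deleted in the germline with CMV-Cre, and the WT mice were littermates of the same sex. A change in these mice can therefore start in any tissue, and whole hippocampus mixes neurons with glia. The study asked which genes and splice forms depend on PRMT9, an arginine methyltransferase that acts on the splicing factor SF3B2, and how this relates to synapses.

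AMPA receptors are tetramers of the subunits GluA1 to GluA4 and carry most of the fast excitatory current in the brain. Each subunit gene has a pair of mutually exclusive exons, flip and flop, that code for part of the ligand-binding domain and set how fast the channel desensitizes. In rodent brain the flip forms come first in development and flop forms are added later. TARPs bind the receptor, and many of them, though not all, carry it to the surface and slow its closing. Cacng8 is the TARP best known in hippocampus. Cornichons such as the product of Cnih2 help the receptor leave the endoplasmic reticulum and also slow its kinetics.

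The flip and flop exons are shown because their shares are the splice measure reported for the 4 subunit genes. Both exons had 115 bases in each gene, and in all 4 genes the flop exon lay before the flip exon in the direction of transcription. They are given in the direction of the transcript, with GRCm38 coordinates, and capitals mark the bases at which flip and flop of the same gene differ:
Gria1 flip (chr11:57310608-57310722, plus strand): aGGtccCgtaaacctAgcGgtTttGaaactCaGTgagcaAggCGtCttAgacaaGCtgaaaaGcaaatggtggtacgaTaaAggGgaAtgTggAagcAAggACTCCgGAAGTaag
Gria1 flop (chr11:57309769-57309883, plus strand): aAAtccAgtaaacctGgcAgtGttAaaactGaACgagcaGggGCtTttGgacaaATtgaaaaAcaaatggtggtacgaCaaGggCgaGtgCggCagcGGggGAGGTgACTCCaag
Gria2 flip (chr3:80690404-80690518, minus strand): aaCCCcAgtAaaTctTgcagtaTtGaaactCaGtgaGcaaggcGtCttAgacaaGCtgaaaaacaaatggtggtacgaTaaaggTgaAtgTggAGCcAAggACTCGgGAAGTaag
Gria2 flop (chr3:80691320-80691434, minus strand): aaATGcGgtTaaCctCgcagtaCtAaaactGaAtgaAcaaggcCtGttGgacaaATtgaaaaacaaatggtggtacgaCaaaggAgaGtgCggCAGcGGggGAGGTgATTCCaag
Gria3 flip (chrX:41669501-41669615, plus strand): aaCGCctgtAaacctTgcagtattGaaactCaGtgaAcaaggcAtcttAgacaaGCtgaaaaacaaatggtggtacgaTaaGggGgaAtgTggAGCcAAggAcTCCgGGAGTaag
Gria3 flop (chrX:41654810-41654924, plus strand): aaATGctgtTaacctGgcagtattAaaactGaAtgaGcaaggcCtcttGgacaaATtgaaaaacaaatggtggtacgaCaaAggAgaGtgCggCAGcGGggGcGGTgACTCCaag
Gria4 flip (chr9:4427030-4427144, minus strand): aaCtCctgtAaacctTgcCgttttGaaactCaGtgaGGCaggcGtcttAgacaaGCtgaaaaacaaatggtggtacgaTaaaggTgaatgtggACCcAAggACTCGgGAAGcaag
Gria4 flop (chr9:4432773-4432887, minus strand): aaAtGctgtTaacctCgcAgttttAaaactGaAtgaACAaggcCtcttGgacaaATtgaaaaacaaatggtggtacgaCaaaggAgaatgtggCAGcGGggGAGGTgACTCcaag
The 2 exons of a gene differed at 36 bases in Gria1 and in Gria2, 32 in Gria3 and 31 in Gria4. Over the 38 whole codons, this exchanged 8 residues in Gria1, 9 in Gria2, 9 in Gria3 and 10 in Gria4. At codon 11 all 4 genes had serine in flip and asparagine in flop, and the exons were named from this difference. Across genes the exons were closer to each other than flip to flop within a gene. The identity between flip exons of different genes was 87.8 to 92.2%, between flop exons 87.8 to 94.8%, and between flip and flop of 1 gene 68.7 to 73.0%.

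The 6 libraries held 194098391 to 286771677 estimated counts. Prmt9 itself was at 11.78, 15.25 and 14.96 TPM in the WT mice and at 3.933, 4.61 and 4.67 TPM in the KO mice, so the KO level was 31.5% of WT. The WT and KO mice numbered 1 stood apart from the other 4 before any comparison of genotypes. In WT mouse 1, 37.4% of transcripts had no count, against 22.8 to 24.8% in the other mice. The summed TPM of 3 oligodendrocyte markers (Mbp, Mog and Mag) was 1580 in WT mouse 1 and 766 in KO mouse 1, against 5250 to 7430 in the other 4 mice. Markers of excitatory neurons, 4 of 4 of which passed 1 TPM in every mouse, summed to 1680 and 1770 TPM in the mice numbered 1 and to 2690 to 2870 TPM in the others. This sum was led by Camk2a, at 776.2 and 815.6 against 1640 to 1704 TPM. Neurod6 was not lower in the mice numbered 1, at 122.9 and 147.5 against 114.4 to 131.6 TPM. The choroid plexus markers, led by Ttr, summed to 7240 TPM in WT mouse 1 and to 604 to 3320 TPM elsewhere. Markers of dentate granule cells passed 1 TPM in every mouse (3 of 3). They summed to 52.5 and 36.5 TPM in the mice numbered 1 and to 83.2 to 93 TPM in the others. Those of CA1 (3 of 3) summed to 198 and 275 TPM in the mice numbered 1 and to 295 to 302 TPM in the others. Of the CA1 markers, Mpped1 was highest in KO mouse 1. Microglia markers summed to 98.7 and 95.1 TPM in the mice numbered 1 and to 129 to 144 TPM in the others. Of these markers, P2ry12 was highest in WT mouse 1, at 44.88 TPM. Endothelial markers summed to 129 and 113 TPM in the mice numbered 1, against 66.2 to 81.3 TPM. That sum followed Cldn5, at 107.2 and 89.17 against 37.07 to 45.25 TPM. Flt1 went the other way, at 7.195 and 7.894 against 14.77 to 20.52 TPM, and Pecam1 was at 13.53 to 15.83 TPM in all mice. Inhibitory neuron markers summed to 146 and 182 TPM in the mice numbered 1 and to 246 to 263 TPM in the others. Astrocyte markers summed to 459 and 551 TPM, against 616 to 650 TPM in the others. That sum was led by Slc1a3, and Aqp4 showed no such split. The sums for oligodendrocyte precursors were 41.3 to 49.4 TPM over all 6 mice. Of the genes that mark neighbouring tissue, the thalamus markers Prkcd and Tcf7l2 summed to 32.4 and 32.2 TPM in the mice numbered 1. In the others they summed to 42 to 49.6 TPM. The cerebellar granule cell markers Gabra6 and Cbln3 summed to 0.592 to 1.88 TPM, with Cbln3 over 1 TPM in WT mouse 3 and KO mouse 3. Marker sums of the genotypes overlapped in all of these lists. The part of these differences in the results that follow was not tested, so key values are also given without both mice numbered 1.

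Among the pore-forming subunits, Gria1 and Gria2 were the main transcripts in both genotypes, and no subunit gene separated WT from KO mice. Gria1 (ENSMUSG00000020524, chr11:57011387-57330244) was at 209.6, 337.4 and 326.8 TPM in WT and at 242.8, 321.5 and 300.9 TPM in KO mice. Gria2 (ENSMUSG00000033981, chr3:80681450-80802835), whose edited subunit keeps calcium out of the channel, was at 138.3, 319.4 and 323.9 TPM in WT and 205.9, 315.2 and 293.1 TPM in KO mice. In both genes the mice numbered 1 were the lowest of their genotype and the groups overlapped.
Gria3 (ENSMUSG00000001986, chrX:41400854-41678601) was lower, at 28.24, 75.93 and 77.12 TPM in WT and 38.91, 73.98 and 68.7 TPM in KO mice. Gria4 (ENSMUSG00000025892, chr9:4417896-4796234) was at 15.42, 26.47 and 24.92 TPM in WT and at 22.7, 27.35 and 24.32 TPM in KO mice. Gria4, which is known above all from interneurons and early development, had the lowest level of the 4 genes in every mouse. Of the summed TPM of the 4 genes, Gria1 made up 47.1 ± 5.57% (SD, n = 3) in WT and 45 ± 2.25% in KO mice, and Gria2 40.1 ± 4.2% and 41.9 ± 1.35%. Gria3 gave 9.15 ± 1.69% and 9.22 ± 1.38%, and Gria4 3.58 ± 0.324% and 3.9 ± 0.484%. In bulk tissue a lower level can mean fewer cells of a type, less RNA per cell or a difference between libraries. These cannot be told apart here. In WT mouse 1, 37.4% of transcripts had no count.

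**Figure D1:**
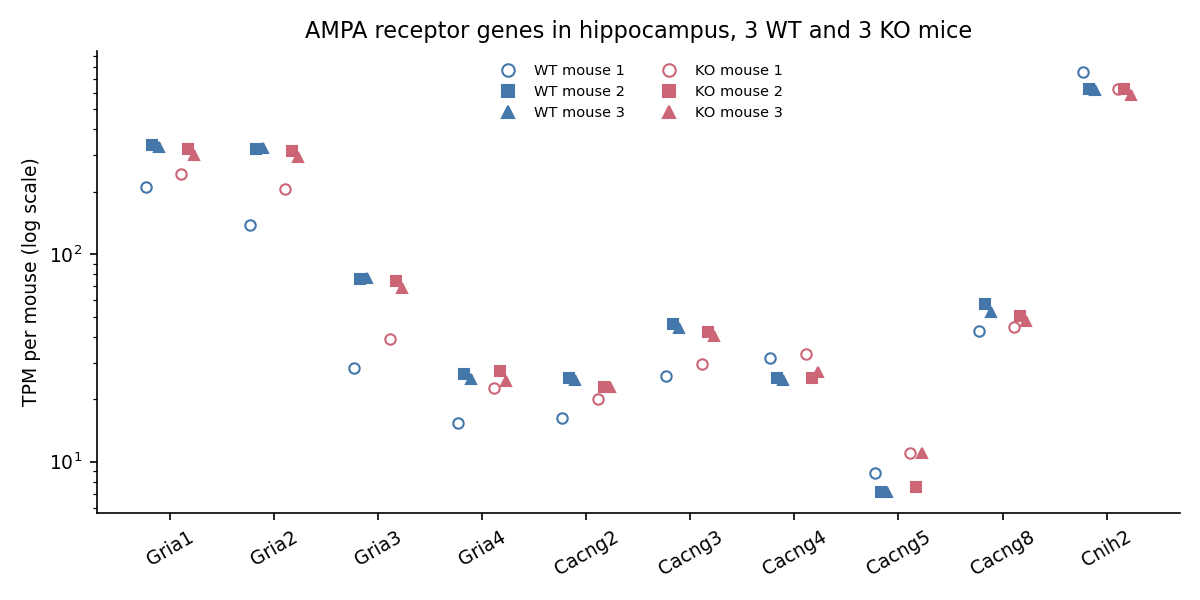
TPM of the 10 AMPA receptor genes in each mouse (log axis, blue for WT and red for KO, open circles for the mice numbered 1). In every gene the WT and KO mice overlapped, and in Gria1, Gria2 and Gria3 both mice numbered 1 sat below the other 4, at 138.3 to 242.8 TPM for Gria1 and Gria2.

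The TARP genes differed in level from 7.155 to 57.76 TPM, and none separated the genotypes on this scale. Cacng8 (TARP gamma-8; ENSMUSG00000053395, chr7:3390683-3415648) led the family, with 42.58, 57.76 and 52.35 TPM in WT and 44.6, 50.37 and 47.75 TPM in KO mice. Cacng3 (gamma-3; ENSMUSG00000066189, chr7:122670492-122769393) followed with 25.82, 45.79 and 43.98 TPM in WT and 29.59, 42.16 and 40.12 TPM in KO mice. Both genes were lowest in the mice numbered 1.
Cacng2 (stargazin, the founding TARP; ENSMUSG00000019146, chr15:77991748-78120028) was at 16.3, 25.31 and 24.8 TPM in WT and at 20.09, 22.76 and 22.87 TPM in KO mice. Cacng4 (gamma-4; ENSMUSG00000020723, chr11:107732357-107794557) went the other way across mice. It was at 31.56, 25.15 and 24.63 TPM in WT and at 32.89, 25.27 and 27.07 TPM in KO mice, highest in both mice numbered 1.
Cacng5 (gamma-5; ENSMUSG00000040373, chr11:107874605-107915055) was the lowest TARP, at 8.821, 7.156 and 7.155 TPM in WT and 11.05, 7.555 and 11 TPM in KO mice. KO mice 1 and 3 lay above all WT mice for Cacng5 and KO mouse 2 lay within their range. Of the summed TARP level, Cacng8 gave 34.7 ± 0.988% (SD, n = 3) in WT and 32.8 ± 1.06% in KO mice, Cacng3 25.9 ± 4.59% and 25.6 ± 3.72%, and Cacng4 19 ± 5.42% and 19.7 ± 3.61%. Cacng4 was above Cacng3 in the mice numbered 1 and below it in the other 4, so this order was not fixed within a genotype.
Cnih2 (ENSMUSG00000024873, chr19:5092868-5098521) had the highest level of the 10 genes, at 756.5, 623.7 and 617.1 TPM in WT and 621.3, 621.5 and 585.8 TPM in KO mice. The WT mean of 665.8 ± 78.7 TPM (SD, n = 3) was raised by WT mouse 1, and the KO mean was 609.5 ± 20.6 TPM.

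No member was called between genotypes. The test was edgeR's quasi-likelihood test on estimated counts summed per gene, with the fold change between counts scaled by library size, and a call needed an adjusted p under 0.01 and a fold over 1.5. Over all 20315 genes tested, 0 were called (0%), and Prmt9 had a log2 fold change of -1.71 ± 0.0987 (SE) with an adjusted p of 0.0327. At an unadjusted p under 0.05 there were 252 genes (1.24%) and 0 of the 10 members. Without both mice numbered 1 there were 3363 of 20479 genes and 2 of the 10 members in edgeR. With DESeq2, 445 of 20299 genes with a p had one under 0.05 (2.19%), and 1 of the members, Cacng8, was among them (adjusted p = 1).
The log2 fold changes of the members ran from -0.23 for Cnih2 to 0.26 for Cacng5, and 3 of 10 were above 0, beside 9532 of 20315 genes tested. Their median was -0.03, beside -0.01 over all genes tested. The subunit genes had log2 fold changes of -0.07 ± 0.129 for Gria1, -0.004 ± 0.227 for Gria2, -0.02 ± 0.319 for Gria3 and 0.15 ± 0.145 for Gria4 (SE). On the log2 TPM scale the signs for Gria1, Gria2, Gria3 and Cacng2 were reversed, with values of at most 0.14, so no direction is given for these genes. On log2(TPM + 1) 7 of 10 members were above 0, beside 13501 of 20311 genes.
Cacng8 was the member with the smallest p. Its CPM, counts scaled by library size but not by length, were 45.93, 48.72 and 43.4 in WT and 40.34, 41.63 and 38.8 in KO mice, so on this scale every KO mouse was below every WT mouse. Its log2 fold change was -0.19 ± 0.0911 (SE), with an adjusted p of 1 in edgeR. The groups did not overlap in CPM for 1 of the 10 members, beside 7.01% of all genes tested, and in TPM for 0 of 10, beside 6.67% of all genes. Without both mice numbered 1 the log2 fold change of Cacng8 was -0.19 ± 0.0614 (SE), with an adjusted p of 0.228 in edgeR.

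**Figure D2:**
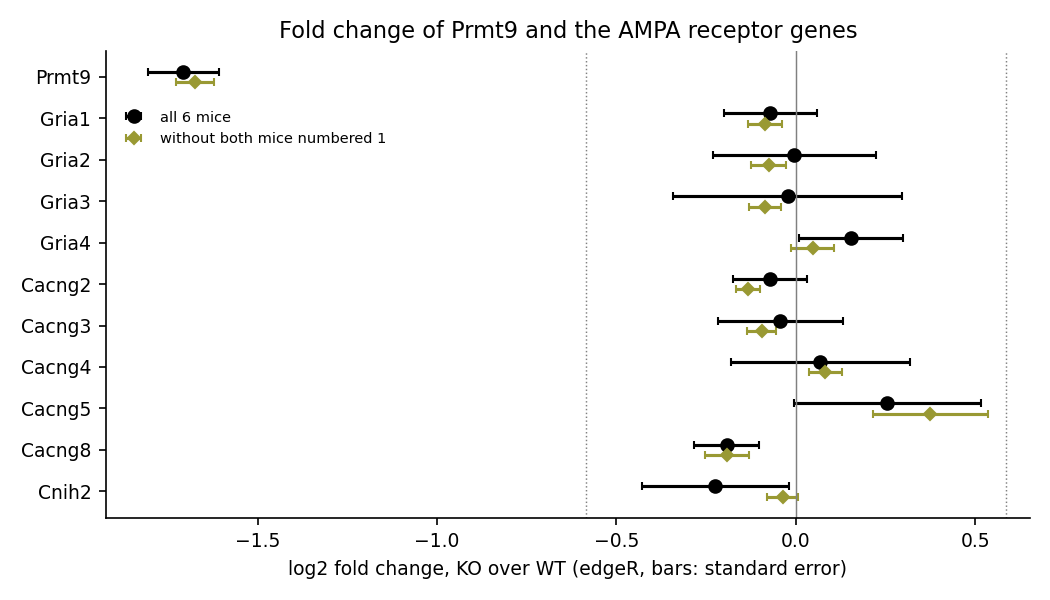
log2 fold change (KO over WT) of Prmt9 and the 10 AMPA receptor genes from edgeR, with all 6 mice (black circles) and without both mice numbered 1 (olive diamonds); bars are standard errors and dotted lines mark a 1.5-fold change. The members lay between -0.23 and 0.26 with all mice, and Prmt9 at -1.71.

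The flip share was computed as the TPM of transcripts with the flip exon over the TPM of transcripts with either exon, leaving out transcripts with both. The groups overlapped for 4 of 4 genes, with means that ranged from 33.8% for Gria4 in KO mice to 91.1% for Gria3 in WT mice. For Gria1 the flip share was 63.9, 50.8 and 51.9% in WT and 67.9, 54.1 and 54.1% in KO mice. Both mice numbered 1 were above the other 4. The means of 55.5 ± 7.25% in WT and 58.7 ± 7.99% in KO mice (SD, n = 3) differed by 3.2 points (exact permutation test, two-sided, p = 0.5, where 3 mice against 3 cannot give less than 0.1). Without both mice numbered 1 the means were 51.3 ± 0.743% and 54.1 ± 0.0392% (SD, n = 2), and both KO mice were above both WT mice by a mean of 2.76 points (exact permutation test, p = 0.333, the smallest that 2 against 2 can give).
For Gria2 the share was 77.4, 86.9 and 87.4% in WT and 86.7, 87.3 and 87.8% in KO mice. WT mouse 1 stood alone below the other 5, which lay at 86.7 to 87.8%. The means of 83.9 ± 5.62% and 87.3 ± 0.541% (SD, n = 3) differed by 3.35 points (exact permutation test, p = 0.5), and by 0.105 points without WT mouse 1.
For Gria3 the share was 100, 87.6 and 85.6% in WT and 95.1, 85.7 and 87.6% in KO mice. In WT mouse 1 the flop transcripts were listed at 0. The means were 91.1 ± 7.79% and 89.5 ± 4.97% (SD, n = 3; exact permutation test, p = 0.8).
Gria4 was the gene in which flop exceeded flip in 5 of 6 mice. Its flip share was 50.8, 35.1 and 32.4% in WT and 34.5, 32.7 and 34.3% in KO mice, and again WT mouse 1 stood alone. The means of 39.4 ± 9.92% and 33.8 ± 0.983% (SD, n = 3) differed by -5.64 points (exact permutation test, p = 0.5), and by 0.0344 points without WT mouse 1.

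**Figure D3:**
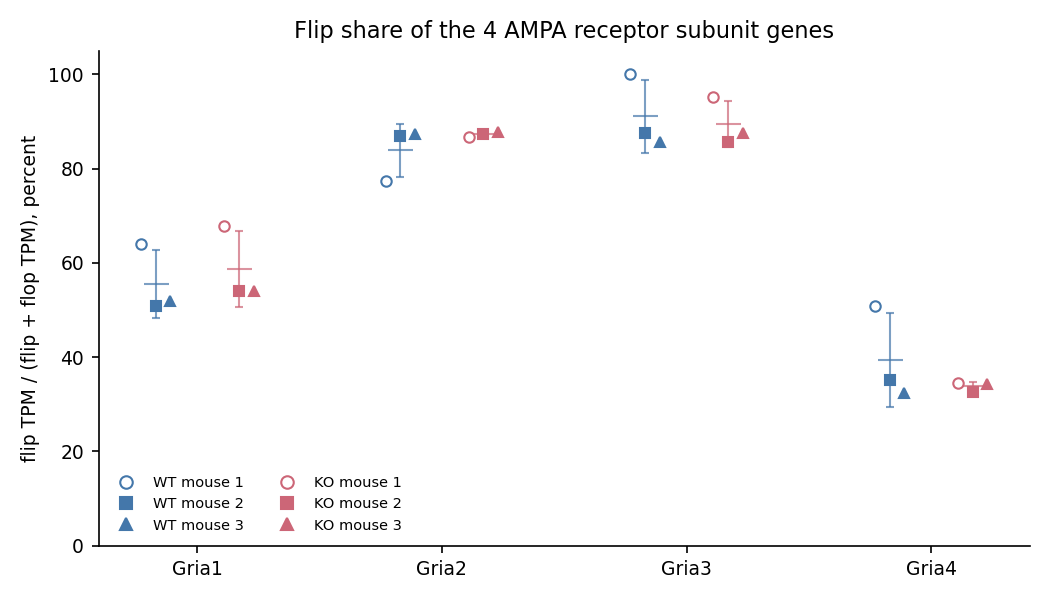
Flip share of Gria1 to Gria4 in each mouse (percent of flip plus flop TPM; lines and bars are group means and SD, open circles the mice numbered 1). The shares fell between 32.4% in Gria4 and 100% in Gria3, and both mice numbered 1 were the highest of their genotype in Gria1, at 63.9 and 67.9%.

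The levels of the 2 forms show which of them varied. Gria1 flip transcripts (Gria1-201 and, with less than 3% of gene TPM in every mouse, Gria1-204) summed to 132.9, 168.1 and 166.7 TPM in WT and 162.7, 171.1 and 160.6 TPM in KO mice. Gria1 flop (Gria1-202) was at 75.22, 162.7 and 154.7 TPM in WT and at 76.79, 145.4 and 136.1 TPM in KO mice. The mice numbered 1 were therefore set apart mainly by flop, which was lowest in both, while KO mouse 1 had a flip level within the range of the other mice.
Gria4 flip was at 5.889, 7.712 and 6.546 TPM in WT and 6.617, 7.524 and 7.385 TPM in KO mice. Gria4 flop was at 5.708, 14.25 and 13.65 TPM in WT and 12.59, 15.51 and 14.16 TPM in KO mice. Here KO mouse 1 was close to the other KO mice and WT mouse 1 was not.
Gria2 flip was at 72.05, 184.4 and 183.5 TPM in WT and at 119.9, 179.6 and 173.3 TPM in KO mice, and Gria2 flop at 21.01, 27.74 and 26.47 TPM and at 18.36, 26.18 and 24.08 TPM. Gria3 flip was at 19.3, 35.97 and 33.85 TPM in WT and at 23.35, 33.14 and 30.5 TPM in KO mice, and Gria3 flop at 0, 5.091 and 5.686 TPM and at 1.202, 5.522 and 4.336 TPM. In both genes flip and flop were lowest in the mice numbered 1, and among all mice the groups overlapped.

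**Figure D4:**
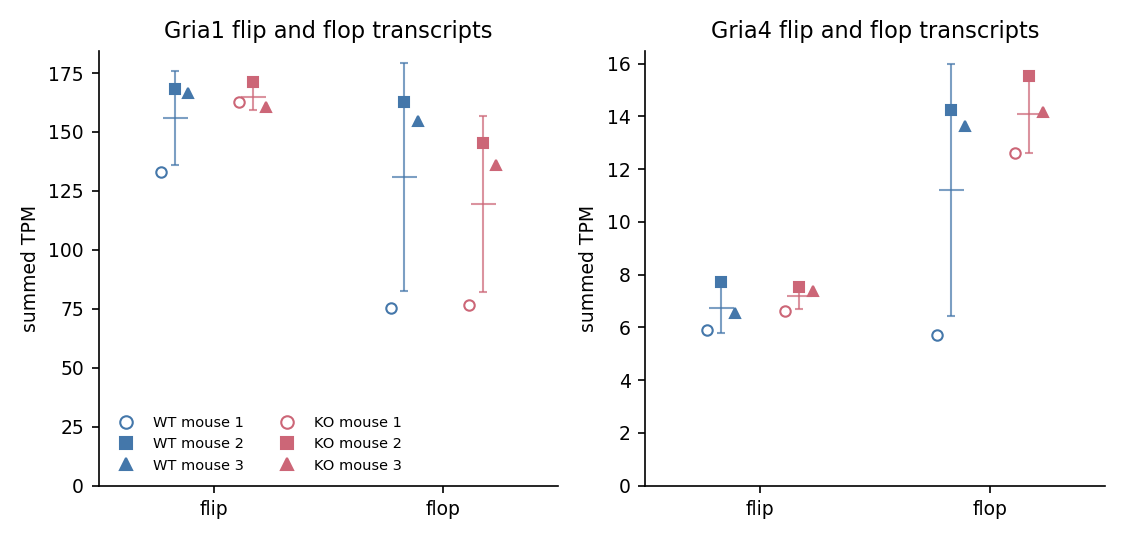
Summed TPM of flip and of flop transcripts of Gria1 (left) and Gria4 (right) in each mouse, with group means and SD (open circles for the mice numbered 1). Gria1 flop was at 75.22 and 76.79 TPM in the mice numbered 1 and at 136.1 to 162.7 TPM in the others, while Gria4 flop was low in WT mouse 1 alone, at 5.708 TPM.

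For Gria2 and Gria3 the share rests on transcripts that differ in more than this exon. The annotated Gria2 flip transcript (Gria2-202) has a last exon of 920 bases and the flop transcript (Gria2-201) one of 7265 bases, so their TPM also divide reads of the 3' end. Computed from estimated counts, the Gria2 flip share became 66.8% in WT and 72.2% in KO mice. In Gria3 the last exon is 2262 bases in the flip transcript (Gria3-201) and 246 bases in the flop transcript (Gria3-202). The second flop transcript, Gria3-209, was listed at 0 in every mouse.
A further form of each gene holds both exons and is annotated as a target of nonsense-mediated decay. Gria2-203 made up 14.2 ± 0.0722% of Gria2 TPM in WT and 14.7 ± 2.9% in KO mice (SD, n = 3). Gria3-206 made up 34.3 ± 8.32% of Gria3 TPM in WT and 38.1 ± 5.07% in KO mice. With these in the denominator, the flip share was 69 and 71.6% for Gria2 and 57.6 and 53.1% for Gria3, in WT and KO mice. The last exon of Gria3-206 has 2259 bases, close to the 2262 of the flip form, while both annotated flop forms end in 246 bases. No annotated flop form of Gria3 thus has the long last exon. The part of this in the shares of Gria3-206 and of flip was not tested. The retained-intron transcripts Gria2-206 and Gria2-204 held a further 12.1 ± 0.505% and 6.01 ± 0.193% of Gria2 TPM in WT, and 10.7 ± 1.64% and 6.71 ± 0.825% in KO mice.

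Of the 39 member transcripts, 34 passed the filter on low counts and 0 were called. Over all 75661 transcripts tested, edgeR called 0 (0%), and 1216 had an unadjusted p under 0.05 (1.61%), 1 of them a member transcript. With DESeq2, 2170 of 75386 transcripts with a p had one under 0.05 (2.88%), and 2 of the 34 member transcripts, Cacng5-202 and Cacng8-202, were among them and not called. In the test of transcript usage (edgeR's diffSpliceDGE, which asks whether the transcripts of a gene change relative to each other), 0 of 9 members with at least 2 tested transcripts were called. Over 13560 genes this test called 23 (0.17%), and 234 had an unadjusted p under 0.05 (1.73%), 0 of them members. With limma's diffSplice 549 genes had an unadjusted p under 0.05 (4.05%), and 1 member, Gria4, was among them (adjusted p = 0.991).
Shares of gene TPM did not overlap between genotypes for 6 of the 33 member transcripts in that test, 18.2%, beside 9.17% over all transcripts. The 6 belong to 3 genes, and shares within a gene sum to a fixed total, so they are not separate observations. Of the 6, Cacng8-203 falls outside the rule for named transcripts and was added after its values were seen.

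Cacng8 gave the tightest of these differences. Its 2 main transcripts, Cacng8-201 and Cacng8-202, have the same coding exons with 1269 coding bases and differ at the 5' end. Cacng8-202 begins with 2 exons without coding bases, at chr7:3390683-3390970 and chr7:3391255-3391365, while Cacng8-201 begins inside the next exon at chr7:3394117-3394504. Cacng8-202 held 71.5, 72.1 and 70% of gene TPM in WT and 66, 66.6 and 66.4% in KO mice. Cacng8-201 held 25.9, 25 and 26.3% in WT and 30.2, 29.3 and 29.7% in KO mice. All KO mice were thus outside the WT range in both transcripts, by a mean of -4.83 and 3.98 points (exact permutation test, two-sided, p = 0.1 for each, the smallest that 3 against 3 can give). Any such lack of overlap between 3 and 3 mice gives this p, so the test adds nothing to it. The 2 transcripts hold most of the gene TPM, so their shares are not separate observations.
The mice numbered 1 did not stand apart in these shares, and without them the differences were -4.5 and 3.81 points. In TPM, Cacng8-202 was at 30.44, 41.62 and 36.64 in WT and at 29.43, 33.57 and 31.71 in KO mice, and Cacng8-201 at 11.01, 14.44 and 13.78 and at 13.46, 14.74 and 14.18. The third transcript, Cacng8-203, a single exon that reaches into the following intron, held 3.1 ± 0.526% in WT and 3.94 ± 0.135% in KO mice (SD, n = 3). In the usage test Cacng8 had an adjusted p of 1, and the transcript test gave Cacng8-202 a log2 fold change of -0.26 ± 0.119 (SE) with an adjusted p of 1 in edgeR.

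Gria4 was the other member with transcripts in both directions. Gria4-203, a short form that ends at chr9:4478263-4478852 before the flip and flop exons and has 1299 coding bases against 2706 in the full-length forms, held 24.8, 17 and 19% of gene TPM in WT and 15.4, 15.8 and 11.4% in KO mice. Gria4-204, a flop form, held 5.23, 10.5 and 10.6% in WT and 12.6, 15.6 and 13.9% in KO mice. It has the same coding exons as the main flop form Gria4-201 and a first exon of its own extent at chr9:4795187-4795519. The KO mice lay below the WT mice for Gria4-203 and above them for Gria4-204, by means of -6.08 and 5.25 points (exact permutation test, p = 0.1 for each). Here too this p follows from the lack of overlap and adds nothing to it.
WT mouse 1 was the most extreme WT mouse in both. The differences were -3.81 and 3.47 points without WT mouse 1 and -4.41 and 4.2 points without both mice numbered 1, with no overlap in either case. Computed from estimated counts, they were -3.13 and 5.24 points. Gria4-201 held 39.8 ± 6.91% in WT and 42.8 ± 1.63% in KO mice, and the flip form Gria4-202 31.2 ± 6.22% and 29 ± 1.43% (SD, n = 3).

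Cacng3-201, the complete form of Cacng3, held 83.2, 88 and 90.9% of gene TPM in WT and 94.3, 91.2 and 92.4% in KO mice. The gap between the groups was small, from 90.9 to 91.2%, and the rest of the TPM came from 2 annotated fragments that each leave out 1 internal exon. The difference of 5.29 points was 3.19 points without WT mouse 1, 2.34 points without both mice numbered 1 and 1.42 points when computed from estimated counts. Of the fragments, Cacng3-202 held 7.43 ± 1.95% in WT and 7.25 ± 1.74% in KO mice (SD, n = 3). Cacng3-203, chosen after its values were seen, was at 2.997, 1.806 and 0.03688 TPM in WT and at 0.09566, 0 and 0 TPM in KO mice, so WT mice 1 and 2 were above the other 4. It failed the filter on low counts with all mice. It passed without WT mouse 3 and without each KO mouse in turn, and Cacng3 then had an adjusted p in the usage test (edgeR) of 0.0811 without WT mouse 3 and of 0.321 to 1 without a KO mouse, against 1 with all mice.
Cacng5-202 was the member transcript with an unadjusted p under 0.05 in edgeR. It has the same coding exons as Cacng5-201 and another first exon, at chr11:107911300-107911362 in place of chr11:107914900-107915055. Its level was low, at 0.7661, 0.6614 and 0.8906 TPM in WT and 2.315, 1.453 and 1.299 TPM in KO mice, and every KO mouse was above every WT mouse. The log2 fold change was 1.08 ± 0.371 (SE), with an adjusted p of 1 in edgeR, and was 0.665 without KO mouse 1. Its share of Cacng5 TPM was 8.69, 9.24 and 12.4% in WT and 20.9, 19.2 and 11.8% in KO mice, so the shares overlapped through KO mouse 3. Cacng5-201 held the rest, 89.9 ± 2.03% in WT and 82.7 ± 4.86% in KO mice (SD, n = 3).
Cacng4-201 held 80.5, 86.9 and 85.6% of Cacng4 TPM in WT and 95.1, 86.4 and 87.1% in KO mice, and the rest came from Cacng4-202, a short noncoding form. The groups overlapped, and the mean difference of 5.22 points was 0.509 points without both mice numbered 1. Cnih2-201 held 97.1 ± 1% of Cnih2 TPM in WT and 96.8 ± 0.709% in KO mice (SD, n = 3), and Cacng2 has 1 transcript in the annotation.

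**Figure D5:**
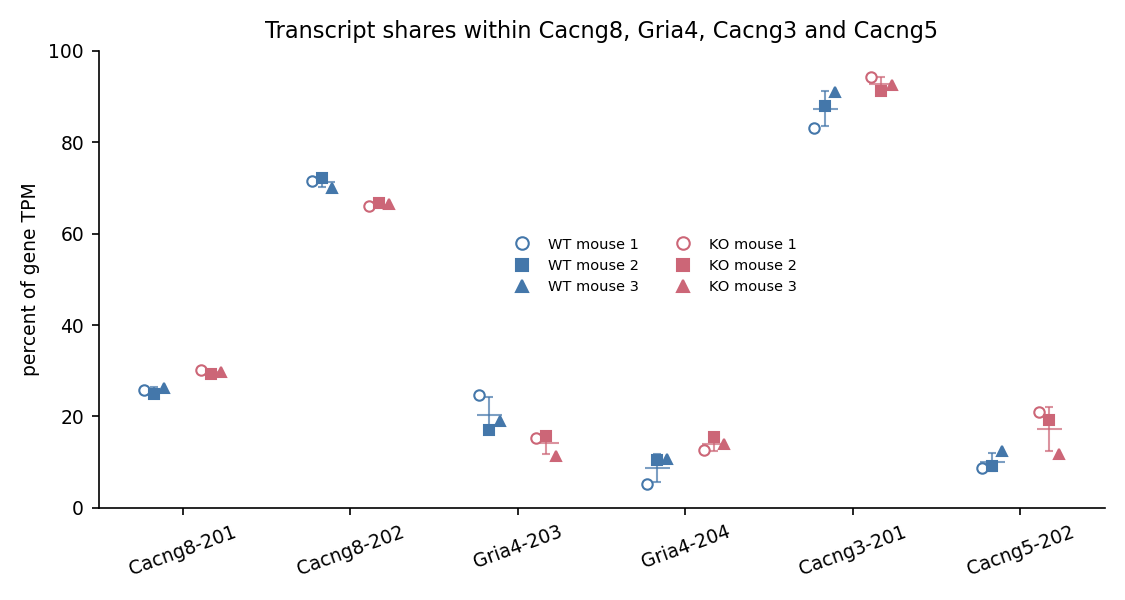
Share of gene TPM held by 6 transcripts of Cacng8, Gria4, Cacng3 and Cacng5 in each mouse, with group means and SD (open circles for the mice numbered 1). Cacng8-202 was at 70 to 72.1% in WT and at 66 to 66.6% in KO mice, while Cacng5-202 overlapped between the genotypes.

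The annotated splicing events of the members were also tested in 1 fit over all genes. An event compares the TPM of transcripts that include a piece with that of transcripts that leave it out, and covers skipped exons, alternative splice sites, retained introns and mutually exclusive exons. Of the 15 events of the members, 14 were tested and 0 were called (a call needed an adjusted p no larger than 0.01 with inclusion changed by 5 points or more). Over all 24070 events limma called 0 (0%), and 769 had an unadjusted p under 0.05 (3.19%), 0 of them in the members. The inclusion levels of WT and KO mice overlapped in every member event, beside 10.7% of all events without overlap.
The 4 flip and flop pairs changed in flop inclusion by -3.2 points for Gria1, -3.35 for Gria2, 1.62 for Gria3 and 5.64 for Gria4 (limma, adjusted p = 1 for each). These are the flip share differences with the sign turned, from the same transcript TPM, and not separate observations. The member event with the widest change in mean inclusion paired the Cacng3 fragments, Cacng3-203 against Cacng3-202. Its inclusion was 68.9, 32.8 and 0.925% in WT and 5.7, 0 and 0% in KO mice, with WT mouse 3 within the KO range. The change of -32.3 points had an adjusted p of 1 in limma. It was -15 points without WT mouse 1 and -49 points without WT mouse 3, with an adjusted p of 0.908 in the latter and of 0.763 with the replicate block. The event that was not tested was a splice-site choice of Cnih2, whose minor form lay at 1.78 to 3.83% in every mouse.

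The partners of the receptor were described with 53 further genes in 4 lists, and 0 of them were called by edgeR or by DESeq2. At an unadjusted p under 0.05 there were 0 of 53 in edgeR and 1 in DESeq2, Cbln1. Without both mice numbered 1 there were 15 of 53 in edgeR, beside 3363 of 20479 genes tested. TPM did not overlap between the genotypes for 3 of 53 (5.66%), beside 6.67% of all genes, with KO above in Cbln1, Pick1 and Myo5b. In CPM the groups did not overlap for 4 of 53 (7.55%), beside 7.01% of all genes, and here KO was below in all 4, which were Prrt2, Abhd12, Prkcz and Olfm1. No gene was in both counts, so which genes stood apart depended on the scaling. In mean TPM and in the edgeR fold change alike, Cbln1 and Pick1 were higher in KO mice. Prrt2, Abhd12 and Olfm1 were lower on both scales, and only Myo5b and Prkcz changed sign. Myo5b, Abhd12 and Prkcz were named after their values were seen.
Direction also depended on the scaling. In edgeR 14 of 53 partner genes were above 0, beside 9532 of 20315 genes tested. On log2(TPM + 1) 36 of 53 were above 0, beside 13501 of 20311 genes. By list this scale gave 10 of 17, 17 of 23, 6 of 10 and 3 of 3. The counts and medians that follow are from edgeR, and no direction is given for the lists. Among 17 other auxiliary and assembly proteins the median log2 fold change was -0.06 and 5 of 17 were above 0. The 2 with the smallest p were Prrt2, at 147.2, 219.2 and 216.8 TPM in WT and 164.9, 191.4 and 188.6 TPM in KO mice, and Prrt1, a component of native receptor complexes. Prrt1 was at 158.9, 295.5 and 280.3 TPM in WT and 157.7, 255 and 250.6 TPM in KO mice. In TPM both genes were lowest in the mice numbered 1 and overlapped between genotypes. In CPM Prrt2 was at 222.2, 252.8 and 247.2 in WT and 197.1, 221.1 and 216.5 in KO mice, without overlap, with a log2 fold change of -0.19 ± 0.104 (SE; edgeR, adjusted p = 1).
Among 23 scaffolds and trafficking proteins the median was -0.05 and 5 of 23 were above 0. Arc, an immediate early gene whose protein drives receptor internalization, was at 35.87, 180.5 and 165.9 TPM in WT and 33.31, 93.15 and 122.8 TPM in KO mice. Its log2 fold change was -0.64 ± 0.614 (SE; edgeR, adjusted p = 1), with an overlap through WT mouse 1, and ran from -1.03 without WT mouse 1 to -0.28 without KO mouse 1. Pick1, which binds the GluA2 tail, was at 48.03, 58.92 and 59.69 TPM in WT and 62.66, 60.76 and 61.79 TPM in KO mice.
Among 10 genes listed as extracellular binders, not all of which are known to bind AMPA receptors themselves, the median was -0.04. Of these, 3 of 10 were above 0. Cbln1, a secreted synapse organizer, was at 8.538, 8.76 and 9.424 TPM in WT and at 22.29, 13.23 and 10.3 TPM in KO mice. Its log2 fold change of 0.72 ± 0.326 (SE) had an adjusted p of 1 in edgeR and was 0.275 without KO mouse 1, and in CPM the groups overlapped. Olfm1 was at 707.5, 965.8 and 931.4 TPM in WT and 707, 939.8 and 890.7 TPM in KO mice. Its groups overlapped in TPM and not in CPM, where it was at 770.2, 810.6 and 773.8 in WT and 689.6, 767.9 and 703.6 in KO mice.
For the 3 RNA editing enzymes, which include the editor of the GluA2 pore site, the median was -0.05. Adar was at 40.88, 75.24 and 76.95 TPM in WT and 52.22, 70.27 and 71.63 TPM in KO mice, and Adarb2, for which no editing activity is known, at 6.039, 11.25 and 12.25 and at 9.092, 12.74 and 11.99 TPM. Editing itself cannot be read from these files.

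Across the 6 mice, the genes most like the subunit genes were Scai for Gria1 (Pearson r = 0.9988 of log2 CPM), Usp31 for Gria2 (0.9995), Golga4 for Gria3 (0.9998) and Gm2383 for Gria4 (0.9997). These values are a description over 6 mice. With the mice numbered 1 apart from the rest, high correlations were common: 1966 of 20314 genes had r over 0.95 with Gria2, 2273 with Gria3, 496 with Gria1 and 376 with Gria4. Among the members, Gria2 and Gria3 had r = 0.994 and Gria3 and Cacng4 r = -0.976.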

How the data were processed

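PolyA RNA of the hippocampus of 6 mice, 3 WT and 3 Prmt9 KO, was made into libraries with a stranded kit. For each mouse the authors deposited estimated counts and TPM per transcript, made with kallisto (version 0.46.0 in the submitters' processing notes; the version given with the study's methods differs), and a gene table of TPM summarised from them. Of 118783 transcripts, 116622 matched GENCODE release M21 (GRCm38), through which genes were named. The annotation that kallisto used is not given in the sources used here. Reads were divided among similar transcripts by kallisto's model, so shares of transcripts that differ little carry an error beyond the spread between mice.

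Here estimated counts were rounded and summed per gene, filtered with filterByExpr, scaled with TMM and tested with edgeR 4.0.16 (quasi-likelihood; diffSpliceDGE for usage). Events were rebuilt from TPM and tested with limma 3.58.1 on log2 ratios with 0.1 TPM added, where every mouse had at least 1 TPM and mean inclusion was 5 to 95% in at least 1 genotype. Adjusted p-values are Benjamini-Hochberg over all features tested. DESeq2 1.42.0 was an alternative. Flip shares were compared with an exact permutation test. The members, lists and thresholds were chosen with earlier results of these data known. Named were all members and Prmt9, transcripts with a flip or flop exon or at least 5% of gene TPM, of each partner list the genes called or else the 2 with the smallest p, and for each subunit gene the gene with the highest correlation. The cell type marker lists were reported by summed TPM, and 1 gene was left out of these sums and is not reported here.

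The fits were tested on simulated data with 200 changed features. For genes, 16.5% of 2-fold and 76.5% of 4-fold changes were called among 20315 genes. For 4-fold changes 18% were called among transcripts, and 23% among events, which were drawn from those with a mean absolute log2 ratio under 2. In transcript usage 2% were called, where only the most abundant transcript of a gene was changed 4-fold. The gene total moved with it, so its share changed by less than 4-fold. A missing call in these 3 comparisons therefore says little. The numbers were taken as pairs in the blocked fits. Deviations from the group means correlated between mice of the same number at 0.553, 0.415 and 0.383 over genes. For mice 2 and 3 the crossed pairs correlated as much (0.417 and 0.394), so these values do not show that mice of the same number belong together. The labels name no shared litter.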

Additional observations from a re-analysis of the deposited data

How the results depend on the processing

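The counts of 0 members, 0 partner genes, 0 member transcripts, 0 members for usage and 0 member events called were the same under all alternatives run, including DESeq2, other normalization and filters, the replicate block, a term for the mice numbered 1, each mouse left out and, chosen after seeing the data, the removal of both mice numbered 1. With the replicate block, 13 genes were called for usage over all genes against 23, and 1 with at least 10 counts in every mouse, 4 with limma, 16 with the F test, 52 with the term for the mice numbered 1, 249 without both of them and 9 to 143 with 1 mouse left out, the most without WT replicate 1 and the fewest without KO replicate 3. DESeq2 called 4 genes and 94 transcripts over all features, and the term and the removal of both mice numbered 1 called 1 gene each, Prmt9 being past the threshold there. Signs near 0 were reversed as follows on the log2 scale: on log2(TPM + 1) and log2(TPM + 0.1), Gria1 was 0.008 and 0.008, Gria2 0.136 and 0.137, Gria3 0.082 and 0.086, Cacng2 0.009 and 0.010, and Adar 0.049 and 0.050. With the replicate block Gria2 was 0.019 and Gria3 0.011, with the term for the mice numbered 1 they were 0.020 and 0.012, and without the filter Gria2 was 0.005. With 1 mouse left out, the log2 fold changes ran from -0.192 to 0.121 for Gria2, -0.276 to 0.175 for Gria3, -0.186 to 0.057 for Cacng3, -0.154 to 0.313 for Cacng4, -0.338 to 0.032 for Cnih2, -0.017 to 0.287 for Adarb2 and -0.182 to 0.03 for Adar. Flip shares were compared between groups again with 1 mouse left out, and the difference KO minus WT ran from -1.41 (without KO mouse 1) to 7.37 points (without WT mouse 1) for Gria1, 0.105 to 5.09 for Gria2, -4.44 to 2.85 for Gria3 and -9.15 to 0.0344 for Gria4. The groups stood apart for 0 genes with all mice and for 0 to 1 with 1 mouse left out. Without both mice numbered 1 this was 1 gene, Gria1, and the Gria3 difference was 0.0244 points. Between mice of the same number (paired exact sign-flip test, which cannot go below 0.25 with 3 pairs) the KO mouse had the higher Gria1 flip share in 3 of 3 pairs, by 4.07, 3.26 and 2.26 points (p = 0.25). The block changed no call of a member. At this sample size the exact tests and the low recovery of simulated transcript changes limit what a missing call can say. The cause of these shifts was not tested.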
